A study of Mus musculus with 12 samples.

Results

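Core circadian clock genes were followed in Neuro-2a cells, a wild-type mouse neuroblastoma line used as a neuron-like model, that had been transfected with reagents meant to raise or block the microRNA miR-155. The genes were chosen by symbol from a list of 10 names, of which Arntl and Bmal1 are the same gene (listed as Arntl), so 9 of the 15767 genes in the deposited tables were members: Clock, Arntl, Per1, Per2, Cry1, Cry2, Nr1d1, Nr1d2 and Dbp. All 9 passed the filter on low counts, which kept 13014 genes. The 12 libraries fell into 3 treatment groups of 4: a negative-control small RNA, a miR-155 mimic and a miR-155 inhibitor, each numbered 1 to 4 in the labels. The cells of all groups were transfected without serum or antibiotics, moved to complete medium after 4 h and kept until day 2, and the labels do not give the clock time of harvest. Their level was described by treatment and by replicate number, as a possible sign that libraries differed in harvest time or cell state.

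The circadian clock is a transcriptional feedback loop. CLOCK and BMAL1, the protein of Arntl, bind E-box sequences as a pair and activate the Per and Cry genes, whose proteins enter the nucleus and repress that pair, and they also activate Nr1d1, Nr1d2 and Dbp. The proteins of Nr1d1 and Nr1d2 (REV-ERBα and REV-ERBβ) repress Arntl, so in rhythmic tissues Arntl peaks at about the opposite phase to Nr1d1 and Dbp. In macrophages Arntl has been described as a target of miR-155.

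The strand of miR-155 that guides repression is shown because the treatments act through its seed (bases 2 to 8, capitals), and the 4 seed matches in the members' 3′ UTRs are shown because they mark the members to which the reagent could pair. Sites are given with 10 bases on each side, the match in capitals, as DNA letters 5′ to 3′. The miRNA is from RefSeq (GRCm38.p6, chr16:84714143-84714165, plus strand) and the sites are from the longest 3′ UTR annotated per gene in GENCODE M21 (GRCm38).
mmu-miR-155-5p: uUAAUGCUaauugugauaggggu
Clock, bases 567 to 573 of its 3′ UTR: tgatacagaaAGCATTAtctgtccctc
Clock, bases 3885 to 3891: tgtatcttagGCATTAAccgtttttaa
Arntl, bases 40 to 46 of its 3′ UTR: gtatcaaagtGCATTAAtggtgaagtt
Arntl, bases 235 to 241: tggatagcttGCATTAAttgtatattt
The first Clock site pairs with the whole seed, while the other 3 pair with all but its last base and end in an adenine opposite the first base of the miRNA. No member held the longer match that has both features, AGCATTAA, and the other 7 members held no match of these kinds. Of 12851 tested genes with an annotated 3′ UTR, 13.2% held a match of some kind and 3.11% the longer one. A match describes letters only.

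Total counts ran from 60695388 to 74200532 per library, and each member had between 456 (Dbp, inhibitor 2) and 3902 counts (Cry2, control 3) in a library. Nothing in the labels says whether the 4 libraries of a treatment are separate cultures. The p-values therefore reflect only the spread among these libraries, and that spread may be technical. The 3 libraries numbered 4 stood apart from the other 9 across the transcriptome, as the shares of all genes given beside each count show. Of 11 sympathetic neuroblastoma markers all were detected, and their summed level was 2372 to 2545 CPM (counts per 1000000 of the scaled library size) in the libraries numbered 4 and 2505 to 2812 CPM in the others. Of these 11, 7 were called lower and 1 higher in number 4 than in numbers 1 to 3 (72.7%, beside 41.5% of all genes). Summed markers of other cells were low and reached higher values in the libraries numbered 4. Immune and endothelial markers, nearly all of it Pecam1, summed to 8.09 to 8.81 CPM there and 4.49 to 7.71 CPM elsewhere, and glial markers, mostly Mbp, to 15.2 to 17.0 and 11.5 to 14.98 CPM, with no overlap in either list. Fibroblast markers summed to 2.38 to 4.23 and 1.63 to 2.85 CPM, which overlapped. By gene, 1 of 2 tested immune and endothelial, 0 of 3 glial and 1 of 3 fibroblast markers were called in number 4, beside 41.5% of all genes. Of the 11 neuroblastoma markers 6 differed among the 4 numbers by edgeR (54.5%), beside 27.3% of all genes. In each list of markers of other cells 0 did. Of these lists 4, 5 and 4 genes were in the tables and 3, 1 and 3 were not among them. The part of these shifts in the clock gene values was not tested.

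Per unit of gene length (transcripts per 1000000, TPM), Nr1d1 had the highest mean of the members over all 12 libraries and Clock the lowest. This order depends on the 1 length used for each gene, which the sources used here do not give. In CPM, Clock, Per1 and Per2 had like means (15.5, 15.3 and 15.6), and Dbp had the lowest (7.99). Nr1d1, a heme-binding repressor, measured 56.4 ± 3.91 TPM (SD over all 12 libraries, as in the values that follow), and 78.6% of genes in the tables had a lower mean. The repressors Cry1 and Cry2 followed with 45.9 ± 5.61 and 35.6 ± 5.85 TPM, and Nr1d2 with 30.7 ± 6.14 TPM. The ranges of neighbours in this order overlapped from Nr1d1 down to Nr1d2, so these neighbours were not separated by more than their spread. In the libraries numbered 4 Cry1 and Nr1d1 were not separated, at 52.9 ± 1.54 and 52.6 ± 3.66 TPM on average (SD, n = 3). Cry1 was above Nr1d1 in control 4 (53.9 and 51.9 TPM) and inhibitor 4 (51.1 and 49.3 TPM). In mimic 4 Cry1 was below Nr1d1 (53.7 and 56.5 TPM). Per2 (16.1 ± 3.15 TPM) and Arntl (15.7 ± 1.98 TPM) formed a second level, below every value of Nr1d2 and above every value of Dbp. Dbp, an output transcription factor that binds D-box sequences, measured 7.36 ± 0.519 TPM. Per1 (4.59 ± 0.495 TPM) and Clock (3.32 ± 0.860 TPM) overlapped at the bottom. Clock varied most between libraries, 2.50-fold from lowest to highest, and Dbp least, 1.24-fold.

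The mimic and the inhibitor were each compared with the control to ask whether clock genes respond to more or less miR-155, and 0 of the 9 members passed in either comparison (edgeR quasi-likelihood test, adjusted p of 1 for each). Of all genes 0 of 13014 passed, or 0% in both comparisons. The fit had treatment group as its only term, so the differences among replicate numbers described below were part of its spread. At an unadjusted two-sided p under 0.05 there were 0 members, against 71 genes (0.546%) with the mimic and 67 (0.515%) with the inhibitor. DESeq2 and limma called 0 members, where DESeq2 called 3 genes of the whole table (0.0191%) with the mimic and 1 (0.00636%) with the inhibitor, and limma 0 (0%) with each. In 0 of 9 members did the 4 mimic or the 4 inhibitor libraries lie clear of the 4 controls, where 0.684% and 0.645% of all genes did so. The comparison of mimic with inhibitor likewise gave 0 members and 0 genes (0%), with 77 genes (0.592%) and 0 members at an unadjusted p under 0.05, and 6 genes (0.0381%) and 0 members by DESeq2.

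Arntl, the member with the strongest prior link to miR-155, measured 45.4, 35.3, 41.1 and 38.3 CPM in controls 1 to 4. In mimic libraries 1 to 4 it measured 46.3, 36.8, 39.4 and 38.3 CPM, and in inhibitor libraries 36.3, 35.7, 44.8 and 34.7 CPM. The 3 groups overlapped throughout. Its log2 fold change was 0.0061 with the mimic (95% interval -0.23 to 0.24) and -0.08 with the inhibitor (-0.32 to 0.16). Differences inside these bounds are not excluded. With replicate number added as a term, its values were 0.0075 with the mimic and -0.08 with the inhibitor (unadjusted p of 0.928 and 0.36 by edgeR).

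Clock, which encodes the partner of BMAL1, measured 20.4, 9.56, 12.7 and 22.4 CPM in controls 1 to 4. It measured 16.7, 19.2, 12.6 and 15.1 CPM with the mimic and 13.4, 15.3, 12.3 and 16.2 CPM with the inhibitor. Both treated groups lay inside the range of the controls, in which control 2 was lowest and control 4 highest. The log2 fold changes were -0.03 with the mimic (95% interval -0.54 to 0.48) and -0.18 with the inhibitor (-0.69 to 0.33), the widest intervals among the members.

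The remaining members, which hold no miR-155 seed match, also had intervals that included 0. The repressor genes had log2 fold changes with the mimic of 0.07 for Per1, 0.14 for Per2, 0.03 for Cry1 and -0.10 for Cry2, with standard errors from 0.117 (Per1) to 0.182 (Per2). With the inhibitor the same genes had -0.04, 0.0097, -0.10 and -0.05. Nr1d1 had 0.03 and -0.03, Nr1d2 0.03 and -0.03, and Dbp -0.05 and -0.08, mimic first. The median over the 9 members was 0.03 with the mimic and -0.05 with the inhibitor, beside -0.0068 and -0.0099 over all genes tested. Both comparisons share the control libraries.

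**Figure D1:**
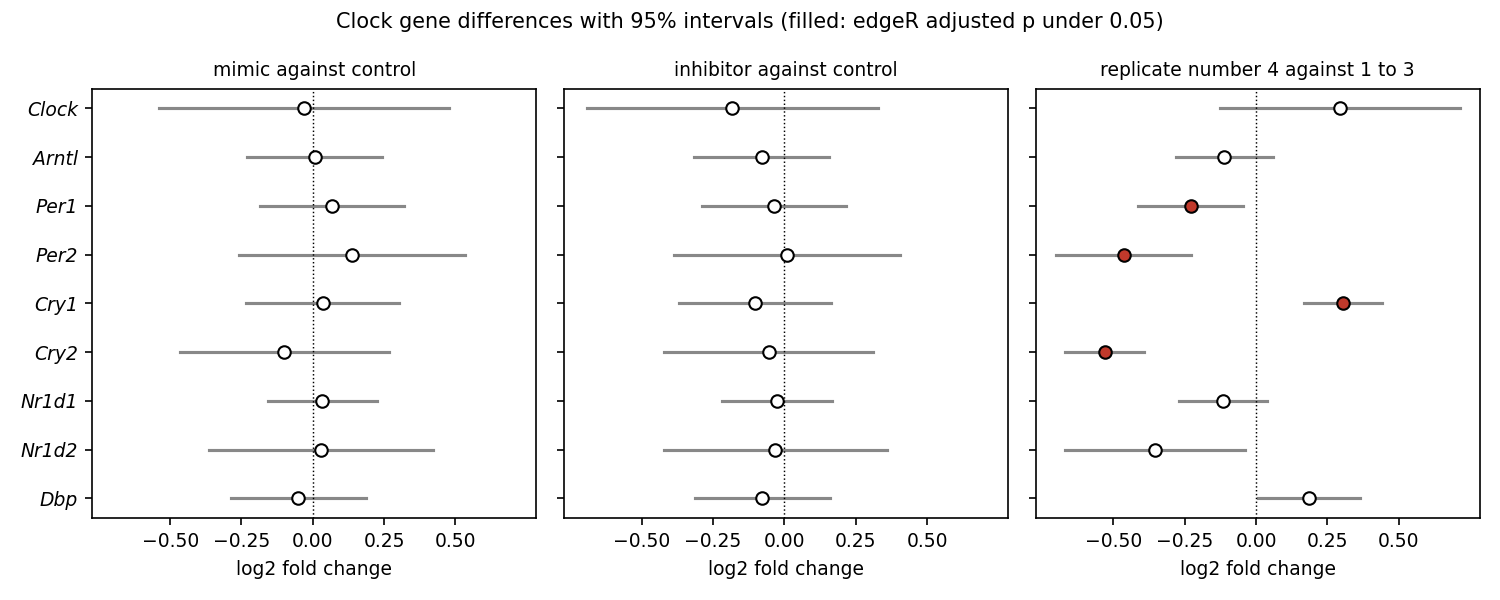
Log2 fold change (x axis) of each clock gene (y axis) for mimic against control, inhibitor against control and replicate number 4 against numbers 1 to 3, with 95% intervals from the edgeR fit to 12 libraries. All intervals of the treatment comparisons cross 0, and the filled points, Per1, Per2, Cry1 and Cry2, passed an adjusted p of 0.05 in the comparison by number.

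By replicate number the picture differed: Cry2, Per2 and Cry1 varied among the 4 numbers, while treatment group was kept as a term. In the test of any difference among the numbers, which needs no choice of a number, 3 of 9 members passed (edgeR F-test on all 4 numbers), where 27.3% of all genes did. The same count of 3 came at an unadjusted p under 0.05 (38% of all genes), with DESeq2 (37.1%) and with limma on log2(TPM + 1) (28.5%), though limma called Per1 and not Per2. The members' share thus lay near that of the transcriptome and is no result particular to clock genes. Among numbers 1 to 3 alone, an alternative added after seeing the data, 0 members and 0 of 13052 genes passed, with 0 members and 119 genes at an unadjusted p under 0.05. Number 3 against 1 and 2 gave 0 members and 0 genes (0%) by edgeR, with 0 members and 282 genes (2.17%) at an unadjusted p under 0.05, and DESeq2 gave 0 members and 141 genes (0.894%) there. Clock was called lower in that comparison without control 2 (log2 fold change -0.49, adjusted p = 0.0191 by edgeR).

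**Figure D2:**
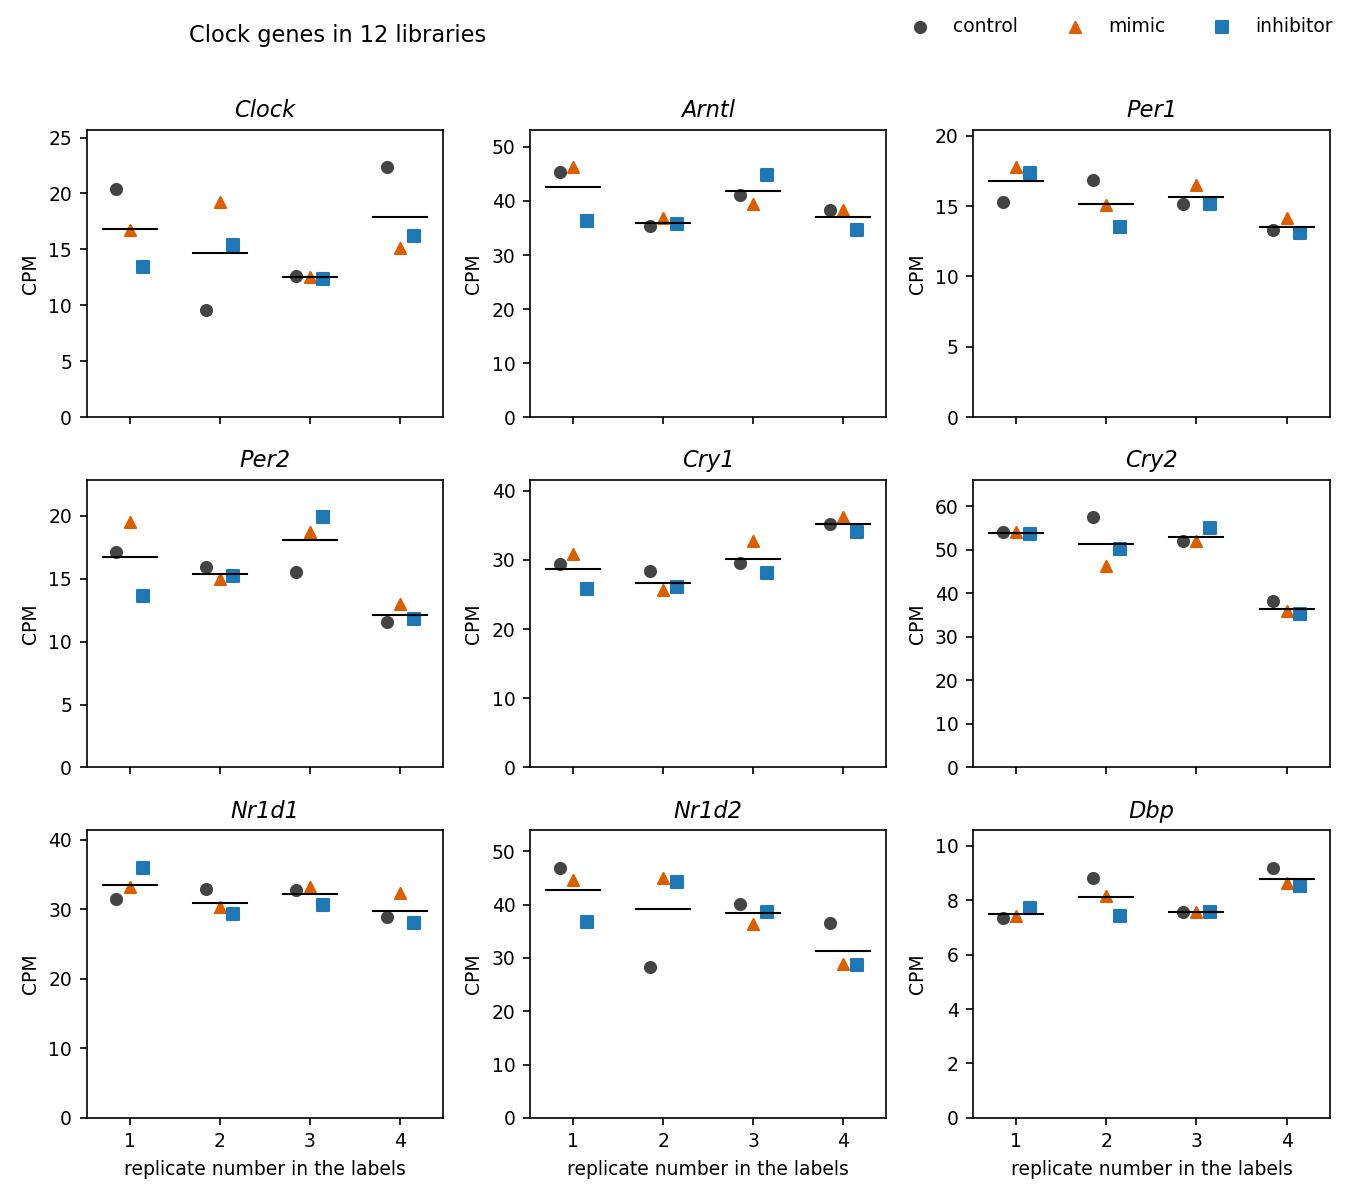
CPM (y axes, from 0) of the 9 clock genes in all 12 libraries by replicate number (x axes), with colour and shape for treatment and a line at the mean of the 3 libraries of each number. Cry2 and Per2 sit lower and Cry1 higher in the 3 libraries numbered 4 than in any of the other 9, and treatments overlap in every panel.

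Cry2, a cryptochrome that represses CLOCK and BMAL1, differed most. Its levels in the control, mimic and inhibitor libraries numbered 4 were 38.2, 35.9 and 35.3 CPM. The other controls stood at 54.0, 57.4 and 52.0 CPM, the other mimic libraries at 54.0, 46.3 and 52.0, and the other inhibitor libraries at 53.7, 50.2 and 54.9. All 3 libraries numbered 4 were below the other 9, and Cry2 passed the test among numbers with an adjusted p of 0.000796 (edgeR) and at most 0.0147 when any 1 library was left out. Against numbers 1 to 3, a split taken from earlier results of these data, Cry2 fell by 0.53 on the log2 scale (SE 0.0628, a fold of 0.692, adjusted p = 8.43e-05 by edgeR).

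Cry1, its paralog and the stronger repressor in the core loop, moved the other way. It measured 35.2, 36.1 and 34.0 CPM in control, mimic and inhibitor libraries numbered 4. The other 9 libraries lay between 25.6 CPM (mimic 2) and 32.8 CPM (mimic 3), so the sets did not overlap. Its adjusted p among numbers was 0.0132 by edgeR, and 0.0681, 0.0677 and 0.113 without control 4, mimic 4 and inhibitor 4. Against numbers 1 to 3 it was 1.23-fold higher (log2 fold change 0.30, SE 0.0625, adjusted p = 0.00268).

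Because of these opposite differences the ratio of Cry1 to Cry2 in TPM separated the libraries widely. It was 1.91, 2.09 and 2.00 in control, mimic and inhibitor numbered 4, and 1.00 to 1.31 in the other 9 libraries. The level of this ratio depends on the 1 length used for each gene, so only its difference between libraries is read here. In CPM, Cry1 and Cry2 averaged 35.1 and 36.5 in number 4, and 28.5 and 52.7 in numbers 1 to 3. The ratio is a description of the split and was not tested.

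**Figure D3:**
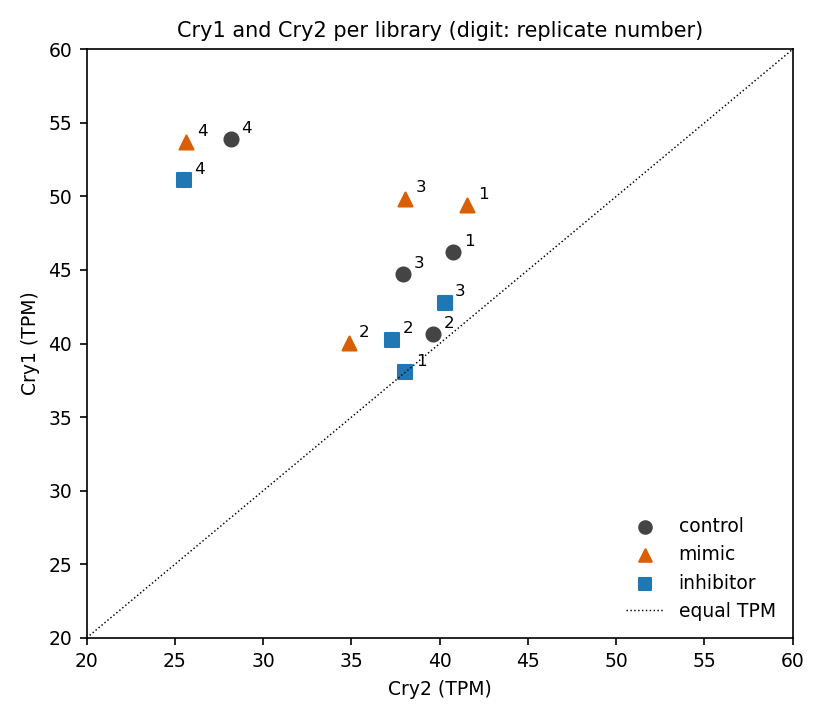
Cry1 against Cry2, both in TPM, 1 point per library, with colour and shape for treatment and the digit for replicate number, and a dotted line of equal TPM. The 3 libraries numbered 4 lie apart at the upper left, at ratios of 1.91 to 2.09, and the other 9 lie near the line at 1.00 to 1.31. Nearness to the line depends on the gene lengths used for TPM.

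Per2, which encodes a partner of the cryptochromes, measured 11.5, 13.0 and 11.8 CPM in control, mimic and inhibitor numbered 4. Elsewhere it measured 17.2, 15.9 and 15.5 CPM in controls, 19.5, 14.98 and 18.7 in mimic libraries and 13.6, 15.3 and 19.9 in inhibitor libraries. The 3 were below the other 9, though mimic 4 came close to inhibitor 1. Per2 passed among numbers with an adjusted p of 0.0265 (edgeR). That call was lost without control 4 (0.123), mimic 4 (0.103), inhibitor 4 (0.124), mimic 3 (0.0637) or inhibitor 3 (0.0579), and with limma on log2(TPM + 1) (0.0505). Against numbers 1 to 3 Per2 fell by 0.46 on the log2 scale (SE 0.108, adjusted p = 0.00546).

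In the comparison of number 4 with numbers 1 to 3 as a whole, 4 of 9 members passed by edgeR, where 41.5% of all genes did: 3 were lower (21.1% of all genes) and Cry1 was higher (20.4%). At an unadjusted p under 0.05 there were 6 members (50.1% of all genes), with DESeq2 5 (37.7%) and with limma on log2(TPM + 1) 5 (43.7%). The median log2 fold change of the members was -0.12 and that of all genes -0.00007, and the members' median absolute log2 fold change of 0.29 stood beside 0.22 over 7578 genes of 5 to 100 CPM. In 3 of 9 members the libraries numbered 4 lay outside the range of the other 9, where 36.9% of all genes did (Cry1 above, as were 17.9% of genes, and Cry2 and Per2 below, as were 19% of genes). Per1, the light- and hormone-responsive period gene, was the fourth call, with 13.3, 14.2 and 13.1 CPM in control, mimic and inhibitor numbered 4 and 13.5 to 17.8 CPM in the others. The ranges overlapped, its log2 fold change was -0.23 (SE 0.0836) and its adjusted p of 0.0479 became 0.0528 with RLE scaling and 0.0511 with upper-quartile scaling. The call was also lost without any 1 of 8 libraries: controls 3 and 4 (0.0631 and 0.154), mimic 1, 3 and 4 (0.075, 0.0856 and 0.118) and inhibitor 1, 3 and 4 (0.0671, 0.0752 and 0.134). It did not pass the test among the 4 numbers (0.154), which it did with limma on log2(TPM + 1) (0.0359) and without control 2 (0.0155).

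The remaining 5 members did not pass in either test by edgeR. Clock had a log2 fold change of 0.29 (95% interval -0.13 to 0.71), the widest interval. Arntl had a log2 fold change of -0.11 against numbers 1 to 3 (-0.28 to 0.06), and without inhibitor 1 it passed the test among numbers (adjusted p = 0.0257). Nr1d1 had -0.12 (-0.27 to 0.04). The intervals of Arntl and Nr1d1 both included 0, so the direction of neither is known. Dbp, a direct output of the loop, had 0.19 (0.0059 to 0.36, adjusted p = 0.0901) and measured 9.19, 8.63 and 8.51 CPM in control, mimic and inhibitor numbered 4, beside 7.34 to 8.81 CPM in the others. It passed with limma on log2(TPM + 1) (adjusted p = 0.028). Among Per1, Per2, Cry1, Cry2, Nr1d1, Nr1d2 and Dbp, values were below 0 for 5 and above 0 for Cry1 and Dbp. Those of Nr1d1, Nr1d2 and Dbp did not pass, and a difference in clock phase was not tested.

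Antisense neighbours with counts of their own bear on 2 of these values, since the sources used here do not say whether reads were counted by strand. In GENCODE M21 Nr1d1 shares 263 of its 3077 exon bases (8.55%) with Thra on the other strand, and Thra, a thyroid hormone receptor, was 1.34-fold higher in number 4 (adjusted p = 0.000353). Dbp shares 539 of 2993 exon bases (18.0%) with Sphk2, a sphingosine kinase gene on the other strand, and Sphk2 fell by 0.64 on the log2 scale (adjusted p = 0.000129). If reads were not counted by strand, those of these pairs cannot be told apart where they overlap. Each neighbour's difference had the opposite sign to that of the member it overlaps, and neither member passed. Cry2 shares 295 of 6320 exon bases (4.67%) with D930015M05Rik, and Arntl 33 of 7523 (0.439%) with Gm45355. Both neighbours lie on the other strand and have no counts in the deposited tables, and their part in the values was not tested.

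Neither Nr1d2 nor Clock passed by treatment or by number in the main edgeR fits. Number 4 was lowest for Nr1d2 among mimic and among inhibitor libraries, though not among controls. Nr1d2 measured 46.9, 28.2, 40.0 and 36.5 CPM in controls 1 to 4, 44.6, 44.9, 36.4 and 28.8 in mimic libraries, and 36.8, 44.3, 38.7 and 28.7 in inhibitor libraries. Control 2 was lowest for both genes. Differences among the numbers made up 41.7% of the log2 variance of Nr1d2 and 33.5% of that of Clock, beside 91.3% for Cry2, 76.7% for Cry1 and 49.6% for the median gene, while treatment made up 0.758% and 3.28%. Without control 2 both passed among the numbers (adjusted p of 0.000285 for Nr1d2 and 0.00606 for Clock by edgeR), and the members called rose from 3 to 6 while all genes called rose from 3547 to 5884. Nr1d2 also passed against numbers 1 to 3 without control 2 (log2 fold change -0.45, adjusted p = 5.85e-05), without control 4 (-0.52, adjusted p = 0.0415), with DESeq2 (-0.35, adjusted p = 0.0381) and with number as the only term (-0.35, adjusted p = 0.0389), while its value by edgeR was -0.35 (adjusted p = 0.0693).

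The 250 bases before the annotated start are printed for Cry1, Cry2 and Per1. They are shown because these repressor genes were called in opposite directions in number 4 against numbers 1 to 3 by edgeR. Each window holds either the E-box or a related form. Sequences are from RefSeq (GRCm38.p6), read 5′ to 3′ on the strand of the gene. Capitals mark 3 elements searched on both strands: the E-box CACGTG, a related form that reads CACGTT, and the nuclear receptor element AGGTCA. An element on the opposite strand appears as its reverse complement.
Cry1, chr10:85185055-85185304, minus strand: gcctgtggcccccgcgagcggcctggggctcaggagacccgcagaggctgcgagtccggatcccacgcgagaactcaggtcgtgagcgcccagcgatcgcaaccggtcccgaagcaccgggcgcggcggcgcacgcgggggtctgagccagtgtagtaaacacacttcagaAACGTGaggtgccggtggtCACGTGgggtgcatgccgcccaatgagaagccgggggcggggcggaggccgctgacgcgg
Cry2, chr2:92434070-92434319, minus strand: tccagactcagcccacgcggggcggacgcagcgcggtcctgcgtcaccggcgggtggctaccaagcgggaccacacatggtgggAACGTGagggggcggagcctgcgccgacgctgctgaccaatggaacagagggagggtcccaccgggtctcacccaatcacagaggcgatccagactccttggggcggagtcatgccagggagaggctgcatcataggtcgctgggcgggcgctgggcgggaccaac
Per1, chr11:69098699-69098948, plus strand: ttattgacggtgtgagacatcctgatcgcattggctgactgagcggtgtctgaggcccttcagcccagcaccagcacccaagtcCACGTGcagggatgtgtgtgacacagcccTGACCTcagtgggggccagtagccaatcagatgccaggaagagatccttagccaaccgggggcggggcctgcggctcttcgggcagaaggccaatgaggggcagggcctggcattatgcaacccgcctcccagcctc
Promoters were found for 8 of the 9 members, and Per2 was not among them. The CACGTG element stood in 2 of these 8 (Per1 and Cry1) and in 6.02% of 32851 promoter windows of this length, and CACGTT in 3 (Cry1, Cry2 and Nr1d1) and in 3.85% of windows. In Cry1 they began 60 and 79 bases before the start, and in Per1 the CACGTG element began 166 bases before its first annotated start. Cry2 held only the CACGTT form, beginning 166 bases before its start. The AGGTCA element, which receptors of the REV-ERB and ROR families bind, was found for Clock, Per1 and Nr1d2 (14.0% of windows). The D-box (TTATGTAA or else TTACGTAA) and the cAMP response element TGACGTCA had 0 matches in the 8 members, beside 0.931% and 1.55% of windows. Against numbers 1 to 3 Cry1 was called higher and Per1 lower in number 4, both with a CACGTG element in the printed window. The ranges of Per1 overlapped, and it did not pass among the 4 numbers (adjusted p = 0.154 by edgeR). The window before the second annotated start of Per1 held none of the elements searched.

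Other genes of the clock included further repressors, D-box factors, kinases and ubiquitin ligase parts. Of a list of 36 such genes 33 were tested, and 11 (33.3%) differed among the numbers by edgeR, beside 27.3% of all genes. Against numbers 1 to 3, 9 were higher and 6 lower in number 4 (45.5% in all, beside 41.5% of all genes), with a median log2 fold change of 0.08. In each treatment comparison 0 of 33 passed, and the medians were 0.01 with the mimic and -0.01 with the inhibitor.

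**Figure D4:**
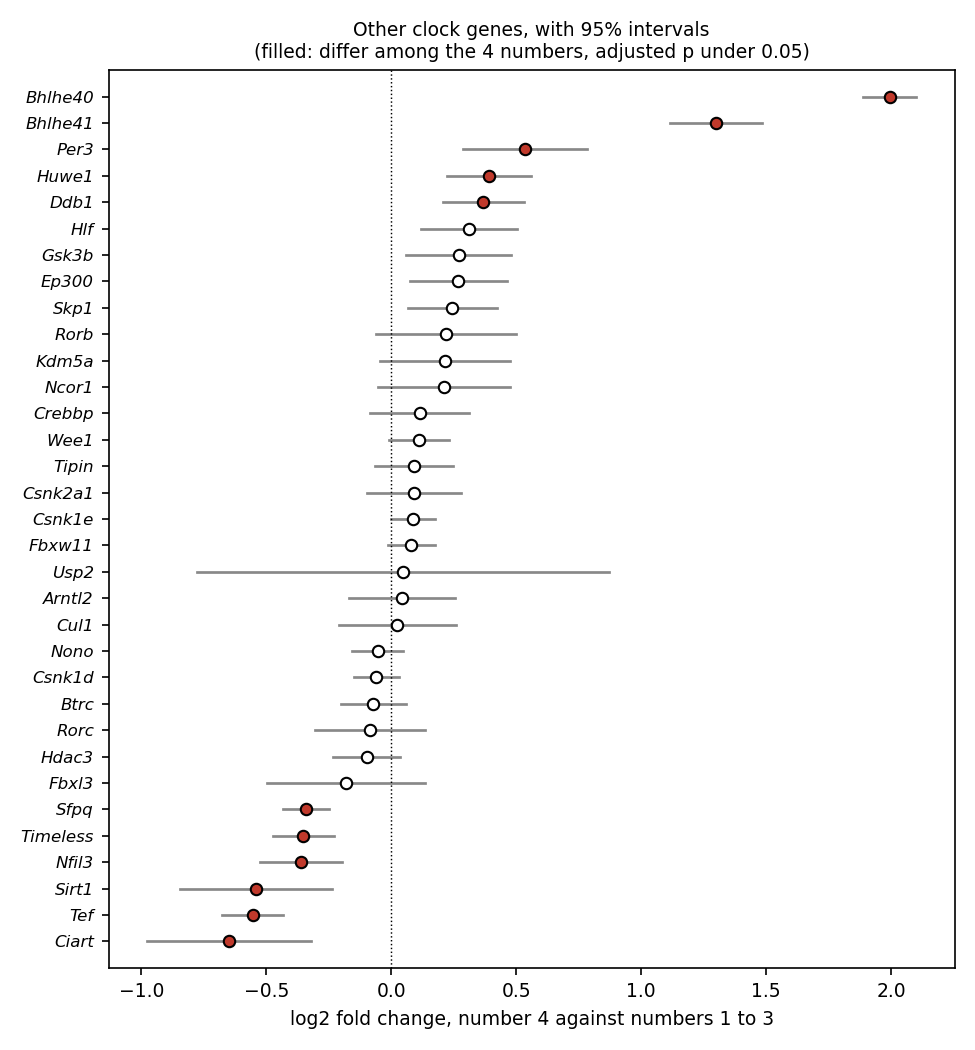
Log2 fold change of number 4 against numbers 1 to 3 (x axis) with 95% intervals for the 33 other clock genes tested (y axis), filled where the gene differed among the 4 numbers at an edgeR adjusted p under 0.05. Bhlhe40 and Bhlhe41 stand at the upper end, and 6 of the 11 filled genes lie below 0.

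Bhlhe40 and Bhlhe41, paralogous repressors that compete with CLOCK and BMAL1 for E-boxes and are also known as genes induced by low oxygen, differed most in this list. Bhlhe40 measured 205.1, 220.3 and 214.7 CPM in control, mimic and inhibitor numbered 4 and 49.9 to 57.8 CPM in the other 9 libraries, a 3.99-fold difference (SE 0.0480 on the log2 scale, adjusted p = 1.99e-09 by edgeR). Bhlhe41 measured 18.1, 20.6 and 18.2 CPM against 6.35 to 8.79 CPM, a 2.46-fold difference (adjusted p = 1.83e-06). Neither set overlapped. Both calls among numbers held when any 1 library was left out (adjusted p at most 0.000937).

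Per3, the third period gene, was 1.45-fold higher in number 4 (9.93, 8.003 and 7.71 CPM in control, mimic and inhibitor, 4.99 to 6.91 in the others), in the opposite direction to Per1 and Per2. Ciart, a repressor of CLOCK and BMAL1, was lower, with 12.9, 19.2 and 14.9 CPM beside 20.3 to 31.3 CPM. Tef, a D-box factor related to Dbp, fell by 0.56 on the log2 scale, and Sirt1, a deacetylase that acts on clock proteins, fell by 0.54. Among the 4 numbers the adjusted p by edgeR was 0.000303 for Tef, 0.0218 for Per3, 0.0344 for Ciart and 0.0454 for Sirt1. Tef passed without any 1 library (at most 0.00663), whereas the p of Per3 rose to as much as 0.172 (without control 4), that of Ciart to 0.189 (without control 4) and that of Sirt1 to 0.212 (without inhibitor 4). Counting the run without the libraries numbered 4, the call was lost in 12 alternatives for Sirt1, 8 for Per3 and 7 for Ciart. Limma on log2(TPM + 1) was among these for Sirt1 (0.131) and Per3 (0.0652), while Ciart passed there (0.0351).

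Genes that respond to hormones and medium change, which act on Per1 and Per2 in cultured cells, were counted in the same way. Of 10 tested glucocorticoid-induced genes, a list that holds Per1, 4 differed among the numbers (40%, beside 27.3% of all genes), and against numbers 1 to 3 there were 3 higher and 2 lower in number 4 (50% in all, beside 41.5%). Of 14 serum- and CREB-responsive immediate-early genes 5 differed among the numbers (35.7%, beside 27.3%), with 6 higher and 3 lower in number 4 (64.3% in all, beside 41.5%). Both lists thus split in direction, with medians of -0.04 each, and 0 members of either passed in a treatment comparison.

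Likeness was described as the greatest Pearson correlation of log2 CPM over the 12 libraries among 9103 or 9104 genes of at least 10 CPM, which share libraries, depth and the difference of number 4. Cry2 was most like Ppcdc (r = 0.99), and 894 genes exceeded 0.9 with it. Clock was most like Ube3a (r = 0.98, 344 genes over 0.9) and Nr1d2 most like Orc2 (r = 0.96, 82 genes). Cry1 was most like P2rx3 (0.96), Per2 most like Frmd5 (0.95), Dbp most like St3gal4 (0.93), Per1 most like Pole (0.92) and Arntl most like Cebpg (0.90). Nr1d1 was most like another member, Per1 (r = 0.86), and 0 genes exceeded 0.9 with it.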

How the data were processed

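RNA sequencing covered 12 libraries, grouped by their titles. For 15767 genes the authors deposited TPM and raw read counts per gene in separate tables. The submitters' processing notes name GRCm39 and, without their roles or settings, STAR, fastp, StringTie, featureCounts and edgeR. Annotation and strandedness: not given in the sources used here. In 10838 genes with at least 100 counts in every library, deposited TPM followed the counts over 1 fixed gene length within 1% in 100% of values.

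The tests used edgeR 4.0.16 (R 4.3.3; TMM scaling, filterByExpr, robust quasi-likelihood fit, two-sided, Benjamini-Hochberg adjustment over 13014 genes, threshold 0.05). Treatments were compared in a fit with group as its term, and replicate numbers in a fit with number and group. CPM used scaled library sizes of the genes kept. Alternatives were DESeq2 1.42.0, limma 3.58.1 on log2(TPM + 1) and log2(TPM + 0.1), RLE and upper-quartile scaling, no filter, number as the only term, a replicate block, leaving out the libraries numbered 4 and leaving out each library. The fits were tested on simulated data. For the treatment comparison these held no difference among replicate numbers, so that run does not cover the spread of the treatment fit here. Chi-square per degree of freedom between libraries within groups ran from 20.4 to 238, so none was taken as a copy.

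The members, gene lists and the split by number were chosen with earlier results of these data known. Named genes were all members, up to 6 other clock genes with the greatest absolute log2 fold change of number 4 among those differing by number, and the gene of at least 10 CPM most like each member. Thra was named in advance for its overlap with Nr1d1, and Sphk2 after the overlaps were seen. Npas2 was on the list of other clock genes and is not described by itself in the text. Sequences are on GRCm38, not the authors' build, and were joined to the counts by gene only.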

Additional observations from a re-analysis of the deposited data

Results flagged for a closer look

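Among 51 sets of 4 libraries (17 genes in 3 treatments) 11 held a library far from the other 3, by the gap to its nearest neighbour over the range. Chance gives about 1 in 20, and the 9 members gave 2 of 27. The other 9 of 24 sets are of genes named mostly for their difference in number 4, to which that rate does not apply, and 8 of those 9 were libraries numbered 4. The 2 members were Arntl, with inhibitor 3 at 44.8 CPM above 34.7 to 36.3 CPM, and Cry1, with control 4 at 35.2 CPM above 28.3 to 29.5 CPM. Bhlhe40 was flagged for control 4 (205 CPM), mimic 4 (220 CPM) and inhibitor 4 (215 CPM), and Bhlhe41 for control 4 (18.1 CPM), mimic 4 (20.6 CPM) and inhibitor 4 (18.2 CPM). Thra stood high in mimic 4 (130 CPM) and Tef low there (85.4 CPM). Sirt1 stood high in control 1 (29.8 CPM).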

How the results depend on the processing

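The count of clock genes called was 0 in each treatment comparison under every alternative run. Over all genes DESeq2 called 3 with the mimic, 1 with the inhibitor, 6 for mimic against inhibitor and 141 for number 3 against 1 and 2, where edgeR called 0. With the replicate block 0 members and 0 genes were called in each treatment comparison. Same-numbered libraries correlated at -0.064 to 0.42 in their deviations from group means. Those numbered 4 correlated at 0.38, 0.42 and 0.34, and those numbered 1 to 3 at -0.064 to 0.15. Since not all were above 0.1, the numbers were not taken as pairs. The main treatment fit thus left the shared difference of number 4 in its spread. Without the libraries numbered 4, a test chosen after seeing the data, 0 members and 0 genes differed among numbers. Leaving out 1 library gave 1 member (without control 4, mimic 4 or inhibitor 4) to 6 members (without control 2) differing among numbers, and 1807 (without inhibitor 4) to 5884 genes (without control 2). For number 3 against 1 and 2 it gave 0 to 1 members and 0 to 569 genes (the highest without control 2), and 0 to 1 genes for mimic against control and for mimic against inhibitor.

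Log2 fold changes near 0 in the treatment comparisons changed sign, none past the threshold. For Clock with the mimic the value was 0.034 and 0.059 with limma at pseudocounts 1 and 0.1, 0.0053 with the replicate block and 0.19 without the libraries numbered 4. Per2 with the inhibitor was -0.00188 and -0.00261 with limma. Without the libraries numbered 4, Nr1d1 with the mimic was -0.0092 and Nr1d2 with the inhibitor 0.056. Leaving out 1 library gave, with the mimic, -0.22 to 0.16 for Clock, -0.061 to 0.074 for Arntl, -0.039 to 0.12 for Cry1, -0.21 to 0.012 for Cry2, -0.0070 to 0.063 for Nr1d1, -0.088 to 0.15 for Nr1d2 and -0.0999 to 0.0067 for Dbp. With the inhibitor it gave -0.37 to 0.0087 for Clock, -0.12 to 0.017 for Per1, -0.15 to 0.11 for Per2, -0.17 to 0.070 for Cry2, -0.11 to 0.020 for Nr1d1 and -0.15 to 0.091 for Nr1d2. Controls 1, 2 and 4, mimic 1 to 4 and inhibitor 2, 3 and 4 were the libraries whose removal turned at least 1 sign. The cause was not tested.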
